A study of Caenorhabditis elegans with 4 samples.

Results

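T09A5.8 was profiled by chromatin immunoprecipitation with sequencing (ChIP-seq) in Caenorhabditis elegans, and the regions described here are the widest of the sites at which it was found. A site was the merged span of peaks that overlapped by at least 1 bp and that included at least 1 peak of each of the 2 ChIP replicates. The broad sites were those spanning more than 10 kb from first to last base. They numbered 238 of 3117 sites (7.64%) and held 3.58 Mb. They were thus chosen by their measured width, so widths, peak counts and edges below describe them and were not tested. Coordinates are those of WormBase build WS220, as the lists give them.

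The animals were fem-2(b245) hermaphrodites kept at 20 °C. The label calls them young adults with a germline, whereas the growth protocol speaks of gravid adults floated on sucrose. The product of fem-2 is a phosphatase that acts in sex determination, and both the ChIP and the input libraries carried the b245 allele on chromosome III, so no wild-type group was available. Chromatin from whole ground worms was precipitated with the antibody SDQ4501 in 2 libraries, and the 2 libraries of input DNA were not used here. Whether the replicates were separate cultures is not stated, so the spread between them may be technical.

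T09A5.8 carries the gene symbol cec-3. Its protein belongs to the chromodomain family, whose members bind methylated tails of histones, and CEC-3 has been reported to recognise histone H3 methylated at lysine 9. In worms that mark is concentrated on the autosome arms, over repeats and genes with little expression, where it can form domains of many kilobases rather than isolated points. A peak caller may report such a domain as 1 long peak or as a chain of shorter ones, so the inner structure of broad sites was examined in each list.

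The broad sites had a median width of 12923 bp and a mean of 15030 bp, with 93 of the 238 (39.1%) at 12 kb or less, 34 (14.3%) above 20 kb and 6 (2.52%) above 30 kb. Just inside the threshold lay sites of 10045 bp (chromosome II, 1826194 to 1836238), 10050 bp (chromosome III, 423589 to 433638) and 10052 bp (chromosome V, 7915432 to 7925483). Just outside it lay sites of 9970 bp (chromosome V, 18767100 to 18777069), 9959 bp (chromosome III, 292098 to 302056) and 9944 bp (chromosome III, 44638 to 54581). The series of widths therefore ran through the threshold with a step of 75 bp. Of all peak bases, 27.5% in replicate 1 and 26.3% in replicate 2 lay in broad sites, a mean of 26.9% ± 0.884 (SD, n = 2).

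Most broad sites were nearly continuous in both replicates. Their bases were covered to 96.1% by peaks of replicate 1 and to 96.9% by peaks of replicate 2, and 93.0% lay in peaks of both. Per site, the median share in both replicates was 96.8% (range 3.72% to 99.9%), and 200 of the 238 sites exceeded 90%. A site had to hold a peak of each replicate, so wide peaks with no overlap in the other list could not lower these shares. The tightest match was the site at 19269294 to 19283378 on chromosome V, with a single peak of 14085 bp and score 3100 in replicate 1 and a single peak of 14068 bp and score 3051 in replicate 2. The next 2 by this share were single peaks in each list as well, at 9544753 to 9556648 on chromosome I (99.8% in both) and at 16769178 to 16787565 on chromosome V (99.8%). Sites of 5 to 10 kb, the class next in width, had a median share of 94.5% (489 sites). Shares of span rise with width when edges differ by a fixed distance, so these 2 values were not tested against each other.

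**Figure D1:**
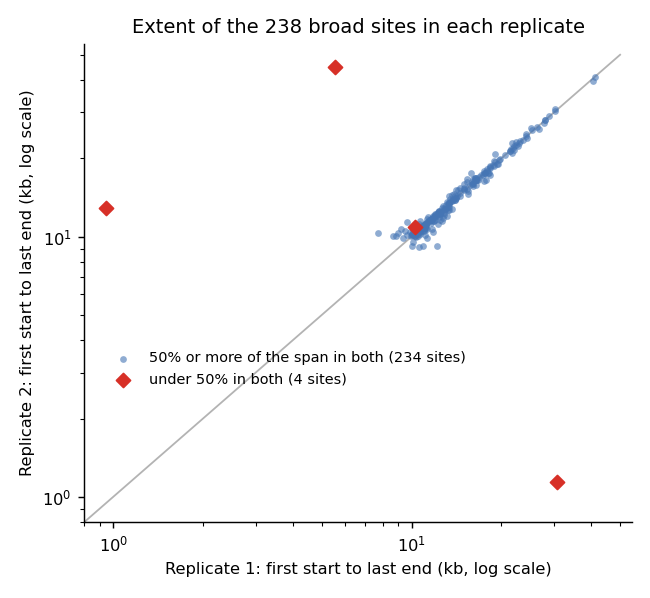
Distance from the first start to the last end of the peaks of replicate 2 (y axis, kb, log scale) against that of replicate 1 (x axis, kb, log scale) for each of the 238 broad sites, with the line of equality in grey. The 234 sites with 50% or more of their span in peaks of both replicates (blue) lie along the line, and of the 4 others (red) 3 lie far from it.

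The widest site rested on replicate 2. It spanned 45649 bp at 12486532 to 12532180 on chromosome I, where replicate 1 had 1 peak of 5558 bp with a score of 3100. Replicate 2 had a peak of 4599 bp with the same score and, after a gap of 142 bp, a second peak of 40141 bp with a score of 235. The last base of replicate 1 lay 40091 bp before that of replicate 2, and 10.2% of the span was in peaks of both. The site at 17613368 to 17643993 on chromosome V (30626 bp) was the converse case, a single peak of replicate 1 with a score of 270 that met a peak of 1139 bp and score 112 of replicate 2 at its right end. At 282900 to 295744 on X, replicate 2 had a peak of 12845 bp with a score of 3100 and replicate 1 a peak of 943 bp with a score of 53.2. Series-level peaks covered 94.6%, 95.3% and 67.2% of these 3 spans. Without these and the one other site under 50% in both, the widest of the 234 remaining sites spanned 41199 bp and the lowest share in both was 69.8%.

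The other sites among the 10 widest were shared along their length. The second widest, 41199 bp at 17217735 to 17258933 on chromosome V, consisted of 3 peaks in each list. In replicate 1 they were 10578, 15031 and 15432 bp wide with scores of 1153, 3100 and 3100, and in replicate 2 they were 11043, 14470 and 15392 bp wide with scores of 1230, 3100 and 3100. In this stretch both lists were divided at nearly the same positions, and 98.9% of it lay in both. The site of 40422 bp at 1910608 to 1951029 on chromosome III was instead a single peak in each list, of 40422 bp in replicate 1 and 39682 bp in replicate 2, both with a score of 3100. At 19402380 to 19433217 on chromosome V (30838 bp) each list again had 3 peaks, and 95.9% lay in both. The remaining 5 were at 1857038 to 1887365, 2189150 to 2217207 and 1161871 to 1189925 on chromosome III, 19947495 to 19976506 on chromosome V and 2451387 to 2479121 on chromosome II, with 97.0% to 99.8% of their spans in both.

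Next, the peaks within each broad site were counted. The 238 sites held 346 peaks of replicate 1 and 320 of replicate 2, a mean of 1.40 ± 0.0772 per site and replicate (SD, n = 2). In 123 sites (51.7%) each replicate had a single peak. Replicate 1 had 1 peak in 161 sites, 2 in 53, 3 in 17 and 4 in 7, and replicate 2 had 1 peak in 173 sites, 2 in 51, 3 in 11 and 4 in 3. Single peaks became rarer with width, since 1 peak in each replicate was found in 10 of the 34 sites above 20 kb (29.4%) and in 113 of the 204 sites of up to 20 kb (55.4%). The most divided site, at 139487 to 149558 on chromosome III, held 4 peaks of replicate 1 and 3 of replicate 2 within 10072 bp, with scores of 110 to 625 and 163 to 787. It was also the site with the most series-level peaks (20), whose highest score there was 9.49, the lowest such maximum of any broad site.

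A width above 10 kb did not always come from a single peak. In 161 sites (67.6%) each replicate had a peak that alone exceeded 10 kb, in 62 (26.1%) only 1 replicate had one, and in 15 (6.30%) the span exceeded 10 kb only after peaks were merged. The longest stretch in peaks of both replicates exceeded 10 kb in 155 sites (65.1%). By its own outer edges, replicate 1 spanned more than 10 kb at 225 of the sites and replicate 2 at 229. These counts are among sites already chosen for a merged span above 10 kb and say nothing of stretches that 1 list alone would add.

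Gaps inside the broad sites were short. Replicate 1 had 108 gaps between its peaks, of a median 173.5 bp (range 1 to 2103), and replicate 2 had 82, of a median 143.5 bp (range 1 to 5975). By the way sites were built, each such gap lay under a peak of the other replicate. At most 200 bp were missing in 59 gaps of replicate 1 and 50 of replicate 2, and more than 1 kb was missing in 5 and 7. A gap occurred in replicate 1 only in 50 sites, in replicate 2 only in 38, in both in 27 and in neither in 123. In the 27 sites, 18 of the 41 gaps of replicate 1 and 18 of the 37 gaps of replicate 2 lay within 1 kb of a gap of the other list. In the other sites with gaps, the other list had no gap to share. Of all gaps, those within 1 kb of a gap of the other list were therefore 18 of 108 in replicate 1 and 18 of 82 in replicate 2. Series-level peaks covered 54.8% of the bases in gaps of replicate 1 and 47.6% in gaps of replicate 2, against a median of 89.9% of the whole span of a broad site. The shares for gaps pool their bases, whereas the 89.9% is a median over all broad sites, including the 123 without a gap. Coverage of the bases outside gaps in the same sites was not computed. Whether gaps fell where the series-level list was thinner within a site therefore cannot be told. That list also comes from the same libraries and is no independent check.

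The widest gap lay at 20887585 to 20898459 on chromosome V. There replicate 2 had peaks of 3898 and 1002 bp, 5975 bp apart, and replicate 1 bridged them with a peak of 10309 bp and a score of 430. The next, of 2103 bp, was in replicate 1 at 13583943 to 13599192 on chromosome III, under a peak of replicate 2 of 15250 bp and score 491. At 14969431 to 14989276 on chromosome I, replicate 1 had 4 peaks with scores of 325 to 1471 where replicate 2 had 1 peak of 19846 bp with a score of 125. Over all sites with 1 peak in one list and several in the other, many scores were tied. Where replicate 1 had the single peak (38 sites), it scored lower than the highest peak of replicate 2 in 16 sites, equal in 20 and higher in 2. Where replicate 2 had it (50 sites), it scored lower than the highest peak of replicate 1 in 16, equal in 20 and higher in 14. Replicate 2 had the higher score at 80 of the 238 broad sites and replicate 1 at 38, so these counts also carry the difference between the lists.

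Edge positions were then compared between the replicates. The first starts and last ends of the replicates lay a median of 106 bp apart (476 edges, middle 50% from 41.5 to 275.8 bp). They were within 100 bp at 237 edges (49.8%), within 500 bp at 408 (85.7%) and more than 1 kb apart at 24 (5.04%), in 23 of the 238 sites. Left edges differed by a median of 111.5 bp and right edges by 93.5 bp. Neither replicate reached further out as a rule, since replicate 1 was the outer one at 119 left and 121 right edges and replicate 2 at 118 and 117. The median distance was 100 bp in sites of 5 to 10 kb, 99 bp in sites of 2 to 5 kb and 71 bp in sites of up to 2 kb. Between 2 kb and the widest sites the distance therefore stayed close to 100 bp while widths grew, and the summed distance at both edges amounted to 2.15% of the width at the median broad site and 3.92% in the class of 5 to 10 kb. Leaving out the 4 sites under 50% in both gave a median of 99.5 bp and a largest distance of 2740 bp, compared with 40091 bp among all 238.

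**Figure D2:**
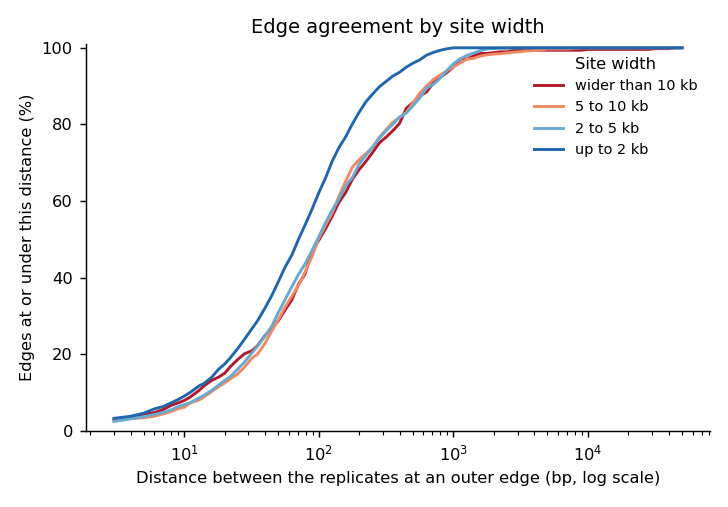
Share of outer edges (y axis, %) at which the 2 replicates lay no further apart than the distance on the x axis (bp, log scale), for 4 classes of site width. The curves of the 3 classes above 2 kb nearly coincide, with 49.8% of the edges of sites wider than 10 kb and 50.3% of those of 5 to 10 kb within 100 bp, and the curve of sites up to 2 kb lies to their left, with 62.2%.

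The highest peak of a broad site often had the score at which the replicate lists pile up. The score is the authors' own value per peak, with no stated definition. In both replicate lists many peaks share the value 3100, with 435 peaks exactly at it in replicate 1 and 589 in replicate 2. The highest peak scored 3100 or more at 143 of the 238 broad sites in replicate 1 (60.1%) and at 155 in replicate 2 (65.1%), and in both at 123 (51.7%). In replicates 1 and 2 these shares were 44.6% and 54.6% among sites of 5 to 10 kb, 6.18% and 13.0% at 2 to 5 kb, and 0% and 0.630% at up to 2 kb, so they rose with width over the classes. Within the broad sites no further rise was seen. Above 20 kb, 20 of 34 sites reached 3100 in replicate 1 and 20 of 34 in replicate 2 (58.8% each), against 60.3% and 66.2% of the 204 others. The value 3100 was not a ceiling, since 19 peaks of replicate 1 and 24 of replicate 2 scored above it, up to 3233 in each list. Ties at 3100 hide any difference among the peaks that share that value. Scores under 500 were found at 19 broad sites in replicate 1, at 14 in replicate 2 and at 5 in both. Wide peaks with modest scores were found among the 10 widest sites too, as at 19947495 to 19976506 on chromosome V, where peaks of 28905 and 27088 bp scored 660 and 740.

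The series-level list divided the same stretches more finely. Each broad site overlapped at least 1 of its peaks, with a median of 6 (range 1 to 20), and 1636 of the 15063 series-level peaks (10.9%) overlapped a broad site, 1595 of them lying wholly inside. A single series-level peak was found in 5 sites, 2 to 5 in 96, 6 to 10 in 100 and more than 10 in 37. The longest series-level peak, of 33107 bp, lay in the site at 1910608 to 1951029 on chromosome III, which held just 2 such peaks with scores as high as 159. Of the 66 series-level peaks wider than 10 kb, 46 (69.7%) overlapped broad sites, so that 192 of the 238 sites had none of that width. The 1398 gaps between series-level peaks inside broad sites had a median of 133 bp, and 1329 of them (95.1%) were 500 bp or shorter. Joined across such gaps, the series-level peaks formed a single run in 183 sites (76.9%).

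Coverage by series-level peaks was similar across chromosomes, with a median of 89.9% of the span and chromosome medians between 88.2% on chromosome II and 90.9% on chromosome IV. The lowest coverage was 45.8%, at 2832507 to 2842953 on chromosome IV, where replicate 1 had 1 peak of 7707 bp and replicate 2 had 3 peaks. The site at 6171144 to 6181761 on chromosome V stood out in another way. Both replicates covered it with a single peak, of 10387 bp with a score of 456 in replicate 1 and 10618 bp with a score of 1174 in replicate 2, and yet series-level peaks covered 49.4% of it. At 13403931 to 13417749 on chromosome I the value was 54.3%. Series-level peaks usually began inside the site, stopping short of the outer edge by a median of 261.5 bp and at 218 of the 238 left and 217 of the right edges. This follows in part from the definition, because the outer edge is that of whichever replicate reached further.

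**Figure D3:**
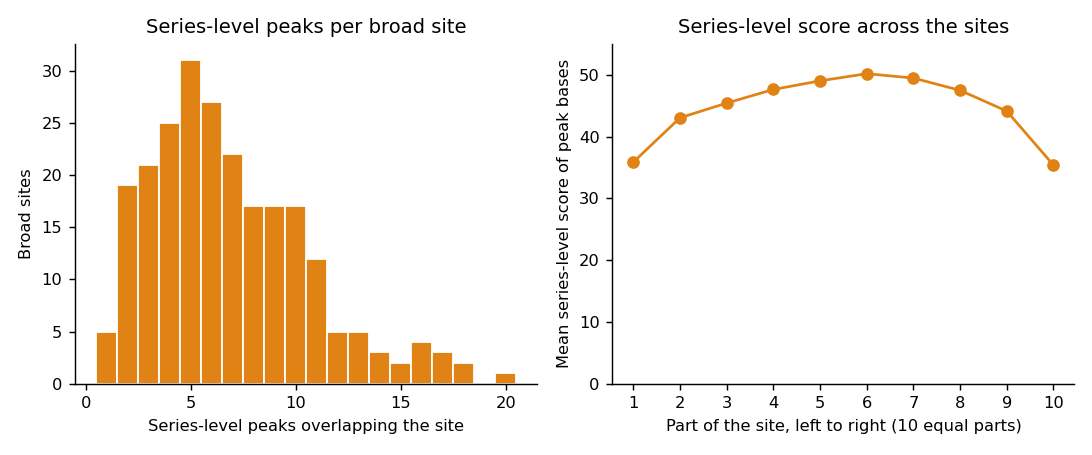
Left, number of broad sites (y axis) by the number of series-level peaks that overlap them (x axis). Right, mean series-level score over the bases in series-level peaks (y axis) in 10 equal parts of each site from left to right (x axis). Scores were highest near the middle, 50.2 in part 6, and lowest in the outer parts, 35.9 in part 1 and 35.4 in part 10. The way of measuring may shape this profile in part, which was not tested.

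Within the sites, the middle carried the higher series-level scores. Averaged over bases in series-level peaks, the score was 35.9 in the leftmost of 10 equal parts, 50.2 in part 6 and 35.4 in the rightmost, and the values changed step by step in between. The share of bases in series-level peaks was 72.6% in part 1, 95.0% in part 6 and 73.2% in part 10. Series-level peaks mostly stopped short of the outer edge, so the lower coverage of the outer parts follows in part from the definition. Scores were weighted by base, and a long peak held inside a site falls more on its middle parts. How much of the score profile comes from this way of measuring was not tested. A score belongs to a whole peak, so differences within a long peak cannot be seen. The highest series-level score at a site had a median of 47.9 over the broad sites (range 9.49 to 159) and of 31.8 over sites of 5 to 10 kb. By chromosome the median over broad sites was highest on chromosome III, at 70.9, and was 39.2 on chromosome V and 38.0 on X.

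Outside their edges, broad sites lay in surroundings dense with other peaks. At 5 kb outside an outer edge, replicate 1 had a peak at 45.6% of the 476 edges and replicate 2 at 47.1%, whereas peaks covered 19.8% and 20.8% of the autosome arms, where most broad sites lay, and 12.5% and 13.2% of all chromosome length. At 20 kb outside the values were still 40.0% and 41.3%. Around sites of 5 to 10 kb they were 35.1% and 37.2% at 5 kb, and 32.4% and 33.0% at 20 kb. The arm values pool all arms of the autosomes, whereas broad sites were concentrated in some of them. These differences were not tested. Next to the edges of broad sites the values dipped, to 33.4% and 33.6% at 1 kb outside and 14.7% and 16.0% at 250 bp. This dip follows in part from the definition, because a peak that touched the edge would have been merged into the site. The gap from a broad site to the next site on either side had a median of 2380 bp, and 125 of these 475 gaps (26.3%) were 500 bp or shorter. A gap with a broad site at both ends was counted from each side, which holds for 64 of the 475 and 24 of the 125. Series-level peaks covered 11.6% of the bases in those short gaps. The nearest other site of any width was a median of 760.5 bp away from a broad site and 1336 bp from a site of 5 to 10 kb.

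**Figure D4:**
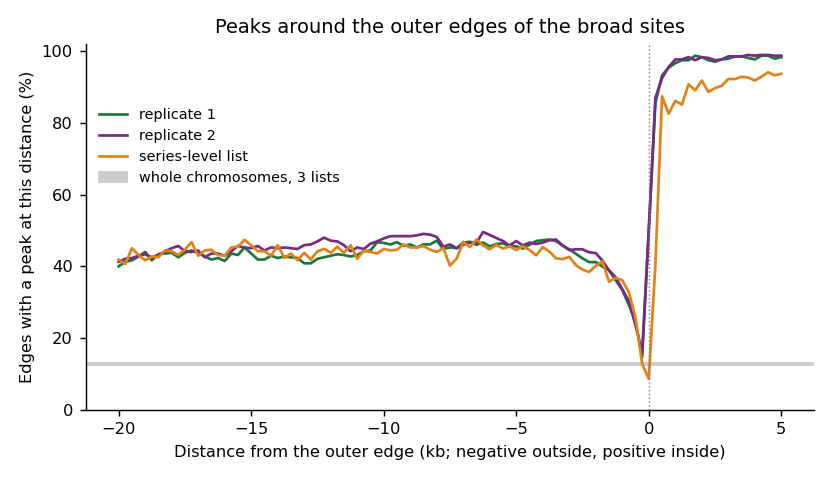
Share of the outer edges of the broad sites (y axis, %) with a peak at a given distance from the edge (x axis, kb, negative outside and positive inside), for replicate 1, replicate 2 and the series-level list, with left and right edges pooled. The grey band gives the share of chromosome length in peaks of the 3 lists, 12.5% to 13.2%, and from 20 kb to 5 kb outside the edge the 3 curves run between 40.0% and 49.6%.

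The spacing of the broad sites was then examined. The gap to the nearest other broad site had a median of 26.5 kb, with a minimum of 40 bp and a maximum of 5423275 bp, and 142 of the 238 sites (59.7%) had another within 50 kb. The same value for sites of 5 to 10 kb measured to their own, more numerous class was 69.1% (338 of 489). The number of sites in a class moves this share, so it was not compared further. Some broad sites were neighbours by a narrow margin. The closest pair, 18293529 to 18315937 and 18315978 to 18332663 on chromosome V, was 40 bp apart, and the pairs with gaps of 57 and 67 bp were at 13102327 to 13126064 and 14969431 to 15008794 on chromosome I. Of the 232 pairs of consecutive broad sites on a chromosome, 8 were up to 100 bp apart and 12 up to 500 bp.

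Joined across gaps of up to 50 kb, the broad sites formed 142 groups. Of these, 96 held a single site, 26 held 2, 7 held 3 and 13 held 4 or more. Those 13 groups contained 69 sites (29.0%), with 4 groups on chromosome I, 3 on chromosome III, 2 each on chromosomes IV and V and 1 each on chromosome II and X, and none lay in a chromosome centre, the middle of 3 parts of equal length. In 3 groups there were 8 members each. On chromosome I they were 14800168 to 15008794, of which broad sites made up 58.4%, and 13737269 to 13942663, with 53.3%. On chromosome III the group at 1021067 to 1226909 had 64.7% of its 205.8 kb in broad sites, between which 10 narrower sites lay.

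The next group by number, on chromosome III at 1812621 to 1983492, was compact. It had 6 broad sites of 17256 to 40422 bp, separated by gaps of 74, 2363, 3837, 2149 and 10342 bp, and they made up 89.0% of its 170.9 kb. Peaks of replicate 1 covered 96.3% of the group, peaks of replicate 2 covered 94.6% and series-level peaks 89.9%. Of the 3 groups with 5 members, that at 19876902 to 19976506 on chromosome V had 89.9% of its span in broad sites and that at 1167470 to 1289909 on chromosome IV had 71.4%. The longest of them, on chromosome II at 1721023 to 1865172, was looser, with 5 broad sites in 48.2% of its span and 12 narrower ones, a widest gap of 47043 bp, and coverage of 74.9% and 87.0% by the replicates. Sites also occurred far from any other. The most isolated was at 7350171 to 7366019 on X, 5423275 bp from the nearest broad site, with a peak of 15705 bp in replicate 1 and 15742 bp in replicate 2. The next was at 8890429 to 8903829 on chromosome II. After it came a tied pair on chromosome I, 4485727 to 4497669 and 6819194 to 6832360, each the nearest broad site of the other at 2321524 bp. The share in both replicates was 98.4% at the site on X, 99.4% on chromosome II, and 99.1% and 96.7% at the pair.

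**Figure D5:**
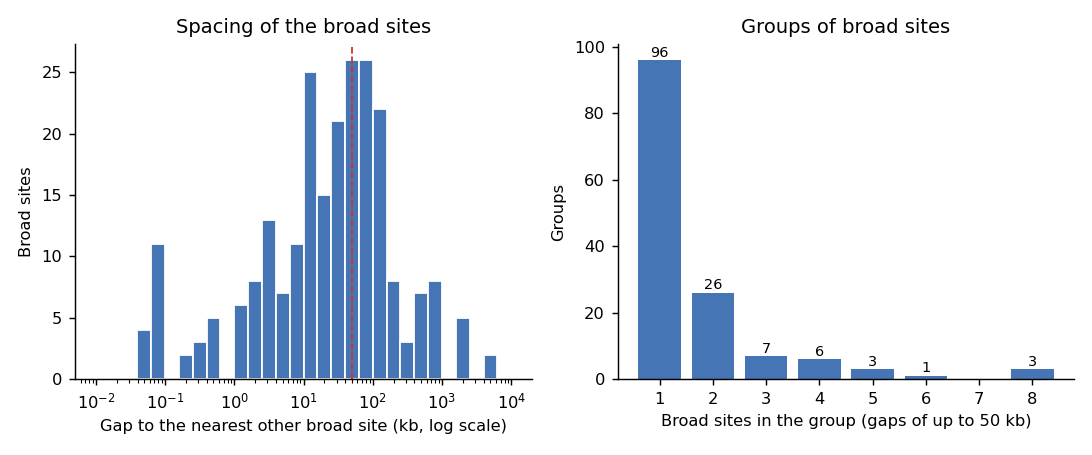
Left, number of broad sites (y axis) by the gap to the nearest other broad site (x axis, kb, log scale), with the 50-kb distance used for grouping as a dashed line. Right, number of groups (y axis) by the number of broad sites in the group (x axis); 96 sites stand alone and the largest groups hold 8.

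Chromosome I held 69 broad sites, V 58, III 52, IV 29, II 21 and X 9. In proportion to all sites of the chromosome they made up 9.24% on V, 8.82% on I, 8.52% on III, 7.20% on X, 5.38% on IV and 4.85% on II. X was therefore close to the other chromosomes in the share of its sites that were broad, although it had just 0.508 broad sites per Mb, against 1.37 on II and 4.58 on I. On X, 8 of the 9 lay in the left part and 1 in the centre. The left part of chromosome III held 42 of its 52, the right part of chromosome V 44 of its 58, the left part of chromosome IV 24 of its 29, and the right part of chromosome I 44 of its 69. On chromosome II, 16 of 21 were on the left. In the centres of the 5 autosomes there were 13 broad sites, and the remaining 216 (94.3%) lay in the outer parts, as did 426 of the 470 autosomal sites of 5 to 10 kb (90.6%). The share was 88.2% for sites of 2 to 5 kb and 88.5% for sites of up to 2 kb. Counts of all sites by part of each chromosome are not given here. Whether broad sites favoured the parts named above more than narrower sites did therefore cannot be told. Mappability, copy number and input reads were not examined, and their part in the position and width of the sites was not tested.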

How the data were processed

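Frozen worms were ground, fixed for 10 min in 1% formaldehyde and sonicated, and chromatin was precipitated with 5 µg of antibody, per the labels' protocols. Gel-cut fragments of 250 to 500 bp received 18 cycles of PCR. Per the file headers, coordinates are on WS220, and the deposited lists name MACS as their source for the replicates and MACS v2 for the series-level peaks. The aligner, thresholds, use of input and any pooling are not given in the sources used here. Each peak's score, as the authors deposited it, was read within its own list, except where both replicates' scores at a site are set side by side. Without read counts the depth of the libraries is unknown, and no interval resting on it is printed.

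Peaks were merged and measured with Python 3.11.15, numpy 2.4.6 and pandas 2.3.3. Arms and centres are 3 parts of equal length, with chromosome ends taken as the largest peak end in any list. Merging, edges, gaps and grouping were checked on 1200 simulated sites, all recovered. In the simulation replicate 2 was always a single peak within the span of replicate 1. Gaps in replicate 2, edges at which it reached further out and sites less than 1 kb apart were therefore not covered. No test was made, because width chose the sites and the lists come from the same libraries. Sites named follow a rule that took the extremes of each measure (10 for width, 5 for groups, otherwise 3). The members, measures and rule were chosen with earlier results of these data known. Alternatives were the overlap, the score filter, widths of 8 and 15 kb, joining across 500 bp, each replicate alone, the series-level list and grouping distances of 20 and 100 kb. Added after the data were seen were the longest stretch in both replicates, a single wide peak in each, joining across 1 kb, and the values for arms and for surroundings of sites of 5 to 10 kb. Symbols came from assembly WBcel235, used for the name of T09A5.8 alone, and no genome of WS220 was used, so genes and sequence are not analysed here.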

Additional observations from a re-analysis of the deposited data

How the results depend on the processing

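Moving the width threshold changed the number of broad sites (238) most, giving 365 at 8 kb and 87 at 15 kb, and counting the longest stretch in peaks of both replicates, an alternative added after the data were seen, gave 155. Also added then were a single peak above 10 kb in each replicate (161) and joining across 1 kb (351). The other 6 settings gave 200 to 308, all within 1.5 times of 238, with 200 to 213 when a replicate was left out. The median share in both replicates was 96.6% at 8 kb, 97.2% at 15 kb and 91.9% with sites joined across 500 bp. The mean number of peaks per site and replicate was 1.29 with a shared 50% of the shorter peak, 1.23 with peaks above the median score, 1.56 at 15 kb, 2.45 with joining, and 1 without either replicate, which follows from merging 1 list with itself. The median share in series-level peaks was 90.3% under the first 2 of these settings, 88.4% at 8 kb, 91.6% at 15 kb, 85.3% with joining, 87.1% with series-level peaks above their median score, and 91.9% to 92.5% without a replicate. The share of sites with another within 50 kb was 57.3% with the shared 50%, 56.0% with the score filter, 70.1% at 8 kb, 47.1% at 15 kb, 67.9% with joining, and 56.0% to 58.7% without a replicate. With 20 kb or 100 kb in place of 50 kb it was 42.9% or 76.9%. That a lower threshold gives more sites, and a longer distance more sites with a neighbour, follows from how these settings are built. The counts of 155 and 161 were taken among the 238 sites, so they could not exceed that number. Joining puts more peaks into a site and takes in bases between peaks. The higher number of peaks and the lower shares with joining therefore follow in part from that setting. The cause of the remaining changes was not tested. The edge distance stayed within 99.5 to 127.5 bp under all 5 settings run. No paired analysis was possible because no result comes from a test between groups: ChIP and input share replicate numbers, but values of the input are not analysed here.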

Other observations

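The requirement of a peak in each replicate left out some of the widest peaks of the lists. Of 200 peaks wider than 10 kb in replicate 1, 11 overlapped no peak of replicate 2, and of 213 in replicate 2, 10 overlapped no peak of replicate 1. Among these wide peaks, 177 in replicate 1 (88.5%) and 188 in replicate 2 (88.3%) had more than 90% of their bases in the other list. The same shares over all peaks of each list were not computed, so whether wide peaks differ from narrower ones cannot be told. Unshared wide peaks reached 29405 bp in replicate 1, at 1650690 to 1680094 on X with a score of 755, and 20993 bp in replicate 2, at 12577148 to 12598140 on chromosome I with a score of 908. Series-level peaks covered 96.0% and 96.5% of these 2 stretches. Some unshared wide peaks had a score of 3100, among them a peak of replicate 1 at 1542935 to 1567880 on chromosome III and a peak of replicate 2 at 13709496 to 13724980 on chromosome I. These peaks were looked at after the values were seen.

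Unshared wide peaks of the 2 replicates lay near each other on X. Between 1650690 and 1738537, replicate 1 and replicate 2 each had 4 peaks, and joining across gaps of up to 500 bp made them a single site of 87848 bp, the widest under that setting, with 10.1% of its span in peaks of both replicates and no broad site inside. Under the same setting, 90 of the 308 sites wider than 10 kb contained no broad site, 202 contained 1 and 16 contained 2 or more, which together took in 36 of the 238. What sets the stretch on X apart was not tested.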
